A study of Lytechinus variegatus with 18 samples.

Results

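The factors described here are Sp-Ets1/2, Sp-Tbr, Sp-Alx1 and Sp-Jun, grouped as transcription factors of the skeletogenic mesenchyme of the sea urchin embryo. They were taken as every gene model of Lytechinus variegatus annotated with exactly 1 of these 4 names, which are names of genes of Strongylocentrotus purpuratus, the purple sea urchin, assigned by best hit. This gave 5 of 27230 gene models, because Sp-Ets1/2 was the best hit of 2. RNA was sequenced from wild-type whole embryos, about 150 to a sample, either exposed to ethanol at fertilization or left as controls. Samples were taken at 15, 18 and 21 hours post fertilization (hpf), which gave ethanol and control embryos at each time as 6 groups of 3 biological replicates, 18 libraries in all. The labels give neither the ethanol concentration nor the parents of a replicate, so p-values measure only the spread between these samples.

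In sea urchins the large micromeres found a lineage that leaves the vegetal epithelium as primary mesenchyme cells and builds the larval skeleton. Ets1/2, an ETS factor that responds to ERK signalling, and Tbr, a T-box factor, are early regulators of that lineage, and Alx1, a paired-class homeodomain factor, drives its skeletal programme. Jun is the basic leucine zipper subunit of AP-1, a dimer that it can form with Fos or ATF proteins. Ets1/2 is also used in other mesoderm. In whole embryos, fewer cells of a type and less RNA per cell cannot be told apart.

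Sp-Alx1 is the gene model L_var_16422, on chromosome 9 from 20842851 to 20851004 on the minus strand, and shared 94.0% of residues with its S. purpuratus hit. Sp-Tbr is L_var_02106, on chromosome 1 from 72002990 to 72016307 on the minus strand, with 68.4% identity, the lowest of the 5. Sp-Jun is L_var_18335, on chromosome 11 from 5548937 to 5549842 on the minus strand, with 89.4% identity. The Sp-Ets1/2 gene models are L_var_14400, on chromosome 8 from 588655 to 629722 on the minus strand, and L_var_14420, on the same chromosome from 1348387 to 1385727 on the plus strand, with 88.2% and 88.4% identity to the same hit. They lie 718665 bases apart with 19 gene models between them. Among the 10 gene models on each side of either copy, 16 had a hit, and of these 10 beside L_var_14400 and 11 beside L_var_14420 shared it with a model beside the other copy. Reads could be divided between such copies, and the level of each Sp-Ets1/2 model is therefore uncertain. Whether the 2 models are separate genes was not tested. Counts out of 5 gene models below therefore include Sp-Ets1/2 as 2 models. Across all 24884 gene models with a hit, 59.1% shared it with another model. Positions are printed as the authors' annotation lists them, and its genome build is not given in the sources used here.

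All 5 gene models passed the filter on low counts, with raw counts from 167 for Sp-Alx1 in its lowest library to 6129 for Sp-Jun in its highest. Library totals lay between 7133636 and 8000894 counts. Levels below are CPM, counts relative to library sizes that were scaled by TMM factors (a trimmed mean of log ratios between libraries), and they are compared within a gene only, since transcript lengths were not used.

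Libraries were set side by side by replicate number, and the pair of replicate 3 at 21 hpf stood apart. Deviations of ethanol and control libraries from their group means correlated across gene models at 0.600 to 0.742 in the 3 pairs at 15 hpf and at 0.630 to 0.680 in the 3 pairs at 18 hpf. At 21 hpf the correlations were 0.156 and 0.402 in the pairs of replicates 1 and 2 and -0.222 in the pair of replicate 3. With the pair of replicate 3 left out of the group means, replicates 1 and 2 each had 0.590, a value that groups of 2 libraries make equal. Of 760 gene models called between ethanol and control at 18 hpf with the replicate number as a block, 92.9% had the same direction at 21 hpf in replicate 1 and 94.9% in replicate 2, against 4.87% in replicate 3. Whether the labels of these 2 libraries belong to them was not tested. The tests of ethanol and of time on the 5 gene models are given with all 18 libraries and with the 16 that remain without this pair. The second set is not independent support, since the pair was left out because of its direction.

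Sp-Ets1/2 transcripts were more abundant in ethanol than in control embryos at 15 and 18 hpf in all 6 same-numbered pairs. At 15 hpf L_var_14400 had 367, 185 and 227 CPM in ethanol replicates 1, 2 and 3, against 262, 103 and 133 CPM in control replicates 1, 2 and 3. At 18 hpf it had 145, 146 and 202 CPM in ethanol embryos, against 76.1, 65.4 and 66.7 CPM in controls. At 21 hpf it had 95.4, 90.3 and 44.1 CPM in ethanol embryos, against 45.1, 50.4 and 151 CPM in controls. The groups overlapped at 15 hpf, did not overlap at 18 hpf, and at 21 hpf replicate 3 alone ran the other way. The second copy, L_var_14420, followed the first closely. At 15 hpf it had 426, 216 and 311 CPM in ethanol embryos, against 312, 128 and 218 CPM in controls. At 18 hpf it had 175, 170.5 and 296 CPM in ethanol embryos, against 104, 73.2 and 93.8 CPM in controls. At 21 hpf it had 113, 92.8 and 64.9 CPM in ethanol embryos, against 48.2, 58.5 and 209 CPM in controls. In each of the 6 groups the same replicate was highest in both copies, and the ratio of L_var_14420 to L_var_14400 within a library stayed between 1.03 and 1.64, with a median of 1.20.

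Sp-Tbr was higher in ethanol embryos at 15 and 18 hpf, and its widest pairs were those at 21 hpf. At 15 hpf Sp-Tbr had 209, 200.3 and 200.2 CPM in ethanol embryos, against 192, 131 and 159 CPM in controls. At 18 hpf it had 119, 127 and 228 CPM in ethanol embryos, against 90.1, 72.7 and 97.4 CPM in controls. At 21 hpf it had 88.3, 115 and 48.6 CPM in ethanol embryos, against 30.9, 27.8 and 193 CPM in controls. The groups did not overlap at 15 and 18 hpf. At 21 hpf the ethanol libraries of replicates 1 and 2 stood 2.85-fold and 4.14-fold above their control partners, and in replicate 3 the ethanol level was 0.252 of the control level.

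Sp-Alx1, the regulator most restricted to the skeletogenic lineage, gave the largest mean ethanol difference of the 5 models with all 18 libraries. At 15 hpf Sp-Alx1 had 180.1, 124 and 104 CPM in ethanol embryos, against 95.7, 42.4 and 73.3 CPM in controls. At 18 hpf it had 98.5, 60.8 and 103 CPM in ethanol embryos, against 58.5, 30.3 and 22.4 CPM in controls. At 21 hpf it had 88.7, 52.1 and 22.2 CPM in ethanol embryos, against 29.8, 30.7 and 94.3 CPM in controls. The groups did not overlap at 15 and 18 hpf. Replicate 3 held both the widest gap in favour of ethanol, 4.61-fold at 18 hpf, and the reversed pair at 21 hpf, where the ethanol level was 0.235 of the control level.

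Sp-Jun varied least. At 15 hpf Sp-Jun had 560.2, 727 and 684 CPM in ethanol embryos, against 447, 393 and 377 CPM in controls. At 18 hpf it had 486, 495 and 564 CPM in ethanol embryos, against 387, 312 and 267 CPM in controls. At 21 hpf it had 438, 305 and 216 CPM in ethanol embryos, against 232, 242 and 491 CPM in controls. The groups were apart at 15 and 18 hpf and mixed at 21 hpf. Its range over all 18 libraries was 1.75 on the log2 scale, against 3.01 to 3.14 for the other 4 gene models.

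**Figure D1:**
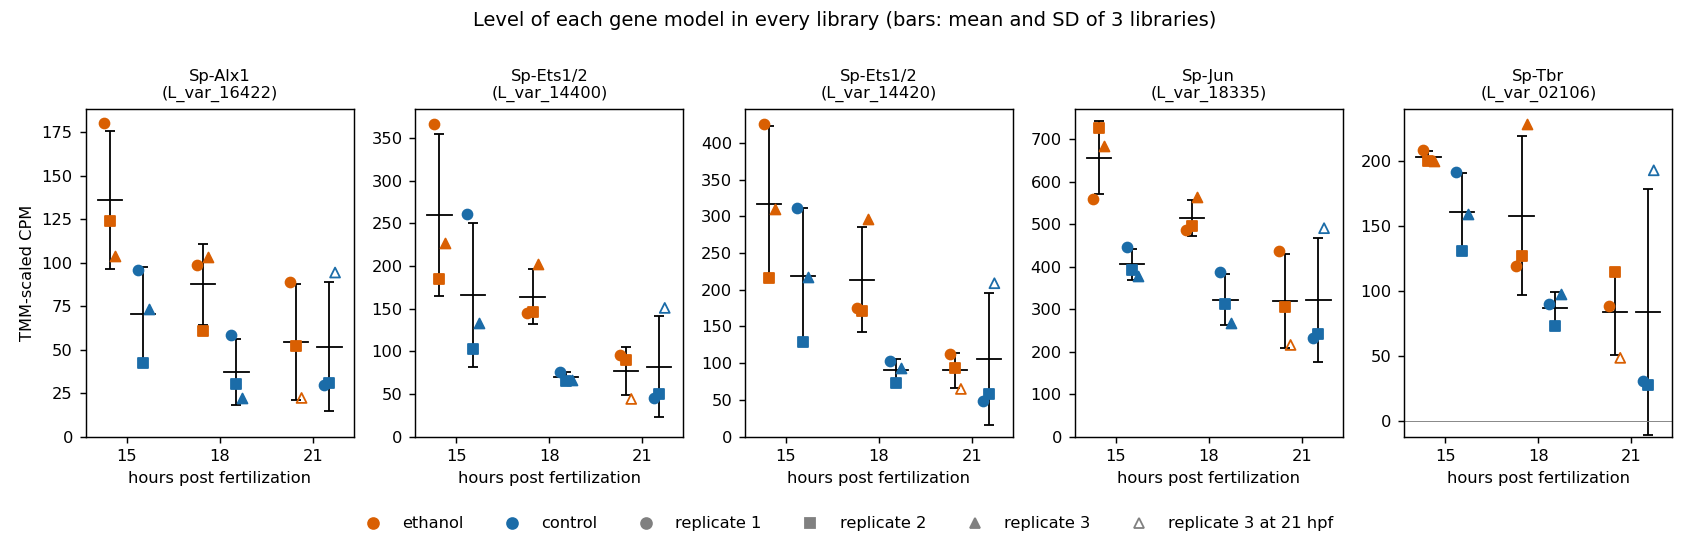
TMM-scaled CPM of each gene model (vertical axes, 1 panel a model) against hours post fertilization, with ethanol libraries in orange left of control libraries in blue. Symbols mark replicates 1 to 3, bars the mean and SD of 3 libraries, and open symbols replicate 3 at 21 hpf, where the control library lies above the ethanol library in all 5 panels.

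Each of the 5 gene models was higher in ethanol embryos in 8 of 9 same-numbered pairs, and for each the exception was replicate 3 at 21 hpf. Of all 18674 gene models tested, 13.9% were higher in ethanol in those 8 pairs, and 13.2% were in addition lower in ethanol in the exception. Over the 8 other pairs the median fold of ethanol over control was 1.95 for Sp-Alx1, 1.85 and 1.69 for the Sp-Ets1/2 models L_var_14400 and L_var_14420, 1.70 for Sp-Jun and 1.64 for Sp-Tbr. The ethanol groups lay wholly above the control groups for 3 of the 5 at 15 hpf, where 6.72% of all gene models did so. At 18 hpf this held for 5 of 5, against 13.5% of all gene models, and at 21 hpf for 0 of 5, against 1.04%.

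**Figure D2:**
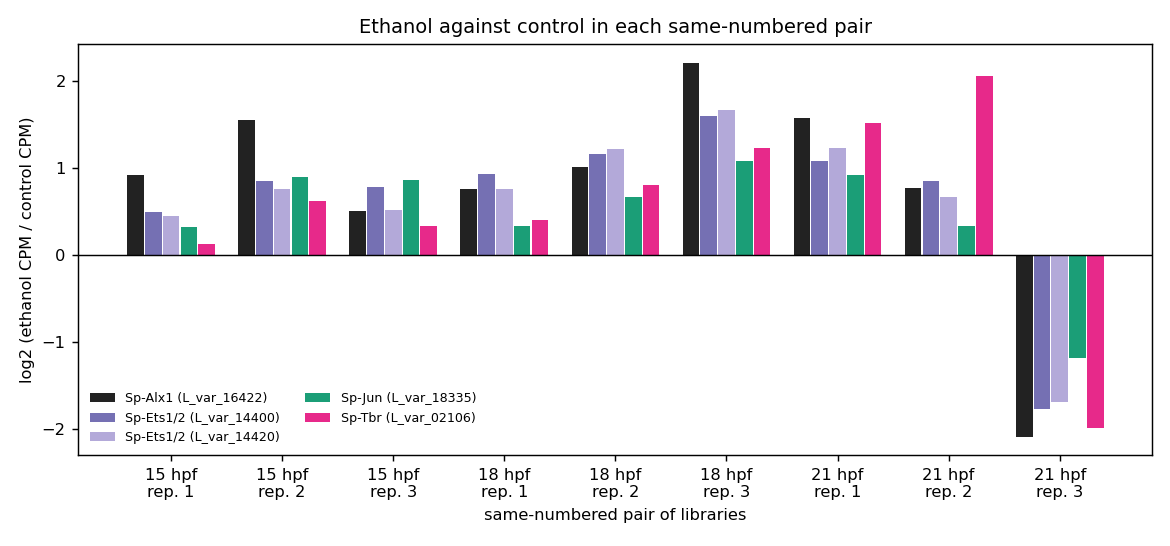
Log2 ratio of ethanol CPM to control CPM (vertical axis) in each of the 9 same-numbered pairs (horizontal axis), with 1 bar for each of the 5 gene models. Bars point up in 8 pairs and down in the pair of replicate 3 at 21 hpf, where the ethanol level was between 0.235 and 0.440 of the control level.

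Library-wide measures moved with these levels. Between 22132 and 24253 gene models had a count in ethanol libraries and between 21041 and 24043 in control libraries, and ethanol exceeded control in 8 of 9 pairs. TMM factors were likewise higher in ethanol in 8 of 9 pairs, at 0.824 to 1.26 in ethanol and 0.752 to 1.10 in control libraries. In both measures the exception was again replicate 3 at 21 hpf. Without TMM factors the median log2 fold change of all gene models for the mean ethanol effect moved to 0.23, against 0.03 with them, and the 5 gene models then lay between 0.57 and 0.93, none called. The part of these measures in the result was not tested.

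With all 18 libraries, no factor passed the test between ethanol and control. Values are log2 fold changes of ethanol over control with 95% intervals, from edgeR's quasi-likelihood test with Benjamini-Hochberg adjustment over all gene models. Averaged over the times, the effect on Sp-Alx1 was 0.75 ± 0.64 (adjusted p = 0.160), that on L_var_14400 of Sp-Ets1/2 was 0.60 ± 0.55 (adjusted p = 0.189) and that on L_var_14420 was 0.52 ± 0.58 (adjusted p = 0.262). It was 0.45 ± 0.37 for Sp-Jun (adjusted p = 0.149) and 0.40 ± 0.67 for Sp-Tbr (adjusted p = 0.448). Of all gene models, 0.53% were called in this comparison. At single times 0 of the 5 were called, against a background of 0.0589% of all gene models at 15 hpf and of 0% at both 18 and 21 hpf. The largest estimates came at 18 hpf, at 1.24 for Sp-Alx1 and 1.24 and 1.25 for the Sp-Ets1/2 models, with adjusted p-values of 0.280, 0.248 and 0.254. Unadjusted p-values at 18 hpf were under 0.05 for 4 of the 5, and for 3070 of all 18674 gene models. At 21 hpf the estimates lay between -0.22 and 0.07. Replicate numbers as a block, which at 15 and 18 hpf paired the samples, called 0 of the 5 at any time or over their mean, where they called 0.477% of all gene models at 15 hpf, 4.07% at 18 hpf, 0% at 21 hpf and 21.2% over the mean. The smallest adjusted p with the block was 0.0520, for the mean effect on Sp-Alx1.

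Without replicate 3 at 21 hpf, and with the block, all 5 gene models rose in ethanol embryos over the mean of the times. The log2 fold changes were 1.13 ± 0.33 for Sp-Alx1, 0.99 ± 0.28 for Sp-Tbr, 0.95 ± 0.34 and 0.90 ± 0.33 for L_var_14400 and L_var_14420 of Sp-Ets1/2, and 0.67 ± 0.26 for Sp-Jun, with adjusted p-values between 2.7e-05 and 0.000397 in edgeR's quasi-likelihood test. In that fit 45.4% of all gene models were called. At 18 hpf it called 5 of 5, against 26.9% of all gene models, with log2 fold changes between 0.68 for Sp-Jun and 1.30 for Sp-Alx1. At 15 hpf it called Sp-Alx1 and Sp-Jun, against 15.4% of all gene models. At 21 hpf, on 2 pairs, it called Sp-Tbr (1.80, adjusted p = 0.000928) and Sp-Alx1 (1.13, adjusted p = 0.0308), against 10.7% of all gene models. Leaving out the control library of replicate 3 at 21 hpf alone, with no block, also called all 5 over the mean of the times, with adjusted p-values from 0.00981 for Sp-Tbr to 0.0309 for Sp-Alx1, against 11.9% of all gene models. Leaving out any other single library called 0 of the 5 there. The fit without that control library is not independent support either, since the library belongs to the pair left out because of its direction.

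**Figure D3:**
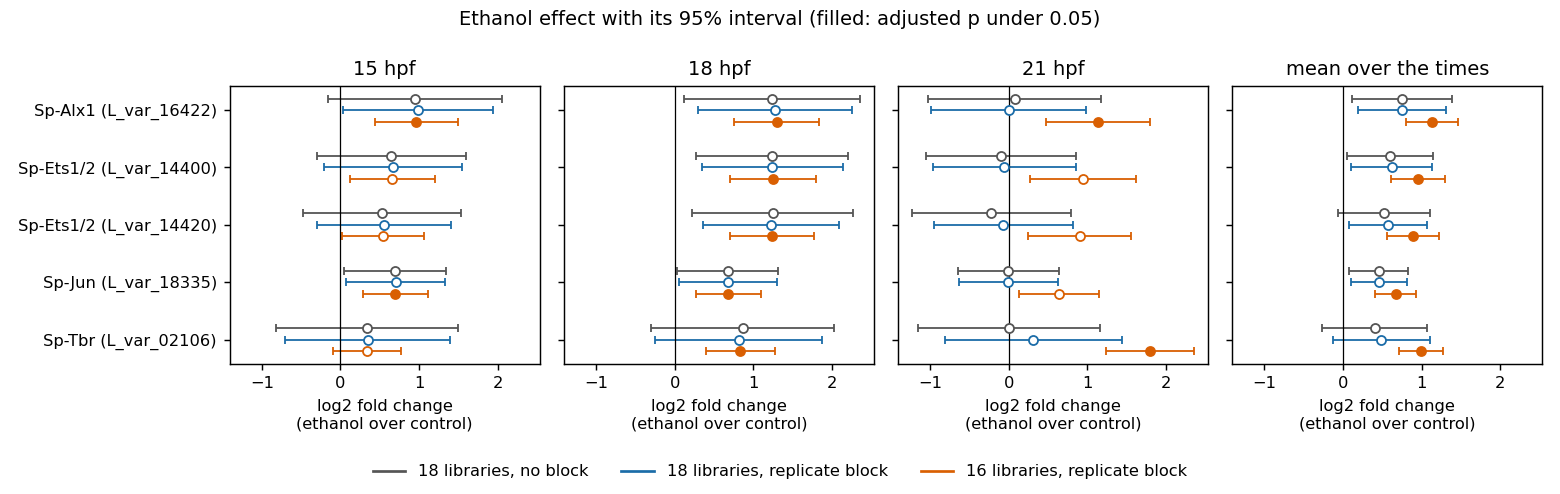
Log2 fold change of ethanol over control with its 95% interval (horizontal axes) for each gene model, at each time and over their mean (panels). Grey and blue show all 18 libraries without and with the replicate block, orange the 16 libraries without replicate 3 at 21 hpf with the block, and filled symbols an adjusted p under 0.05. Filled symbols appear in the orange fit only, among these 3 fits.

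The ethanol effect was not shown to differ between the times for any of the 5 gene models. The F test of a different effect at the times gave an adjusted p of 1.00 for each with all 18 libraries and of 0.772 to 0.922 with the block, and called 0% of all gene models in each. In the 16 libraries with the block, Sp-Tbr had the smallest value (unadjusted p = 0.00169, adjusted p = 0.200), with effects of 0.34, 0.84 and 1.80 at 15, 18 and 21 hpf, and 0.199% of all gene models were called. Sp-Jun had effects of 0.70, 0.68 and 0.63 at those times in the same fit, with an adjusted p of 1.00.

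All 5 gene models had their highest mean level at 15 hpf under both treatments, and the ethanol libraries at 21 hpf lay wholly below those at 15 hpf for 5 of 5, against 8.39% of all gene models. In control embryos this held for 0 of 5, against 8.84%, because replicate 3 at 21 hpf lay within or above the range of controls at 15 hpf. In ethanol embryos with all 18 libraries, both Sp-Ets1/2 models fell at 21 against 15 hpf, by 1.76 on the log2 scale for L_var_14400 (adjusted p = 0.0435) and by 1.82 for L_var_14420 (adjusted p = 0.0496), where 3.75% of all gene models were called. With the block, for which replicate numbers paired the samples of both times (correlations of deviations 0.309 to 0.573 in ethanol embryos), Sp-Jun also passed, with a log2 fold change of -1.05 (adjusted p = 0.0311), and 12% of all gene models were called. Both Sp-Ets1/2 calls without the block were narrow, and 12 of 18 single libraries ended them when left out, with adjusted p-values up to 0.212. These were each of the 6 libraries at 18 hpf, the 3 ethanol libraries at 21 hpf, ethanol replicates 1 and 3 at 15 hpf and control replicate 3 at 15 hpf. In control embryos 0 of the 5 were called, against 3.88% of all gene models, or 13.3% with the block, which also called 0 of the 5. Without control replicate 3 at 21 hpf, 3 were called in control embryos with no block, namely Sp-Tbr at -2.45 (adjusted p = 0.00267) and the Sp-Ets1/2 models at -1.80 and -2.04, against 4.95% of all gene models. These calls are not independent support for a decline, since the library left out was the highest control at 21 hpf.

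In the 16 libraries with the block, all 5 fell with time under both treatments. The log2 fold change of 21 over 15 hpf for Sp-Tbr was -0.90 in ethanol embryos and -2.35 in control embryos. For Sp-Ets1/2 it was -1.45 and -1.51 in ethanol embryos and -1.73 and -1.87 in controls, for L_var_14400 and L_var_14420. For Sp-Alx1 it was -1.02 in ethanol embryos and -1.19 in controls, and for Sp-Jun -0.85 in ethanol embryos and -0.79 in controls. The share of all gene models called was 11.7% in ethanol embryos and 18.4% in controls. The difference between the treatments in this decline was tested only through the effect by time, which did not pass for any of the 5.

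With all 18 libraries, ordering the groups by mean level placed ethanol embryos at 15 hpf first for each gene model. Sp-Alx1 averaged 136 ± 39.6 CPM there (SD, n = 3), followed by ethanol embryos at 18 hpf with 87.5 ± 23.2 and controls at 15 hpf with 70.5 ± 26.8 CPM, whose ranges overlapped. Ethanol and control embryos at 21 hpf then had 54.3 ± 33.3 and 51.6 ± 37.0 CPM, and controls at 18 hpf came last with a mean of 37.1 CPM and a range of 22.4 to 58.5 CPM, each overlapping the next. For L_var_14400 of Sp-Ets1/2, ethanol embryos at 18 hpf with 164 ± 32.6 CPM stood level with controls at 15 hpf with 166 ± 84.3 CPM. For L_var_14420 these groups had 214 ± 71.4 and 219 ± 91.8 CPM. For Sp-Tbr the same groups had 158 ± 60.9 and 161 ± 30.3 CPM. Sp-Jun alone had ethanol embryos at 18 hpf, with 515 ± 42.5 CPM, wholly above controls at 15 hpf, with 406 ± 36.9 CPM. That comparison was read from the order of the means, and the share of all gene models showing it was not counted. Controls at 18 hpf had 69.4 ± 5.84 CPM of L_var_14400, 86.8 ± 12.7 CPM of Sp-Tbr and 322 ± 60.6 CPM of Sp-Jun. Without replicate 3, Sp-Alx1 averaged 70.4 CPM in ethanol and 30.3 CPM in control embryos at 21 hpf, 2 libraries each.

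The 5 gene models varied together over the libraries, but many other gene models were closer to 1 of the 5 than the rest of the 5 were. By correlation among 11019 named gene models, the Sp-Ets1/2 models ranked 1 for each other. Otherwise the ranks ran from 7, for L_var_14420 in likeness to Sp-Tbr, to 332, for Sp-Tbr in likeness to Sp-Alx1. Pearson coefficients in log2 CPM over the 18 libraries, which share their treatment, time and depth, ran from 0.789 between Sp-Alx1 and Sp-Tbr to 0.981 between the Sp-Ets1/2 models, and in the 16 libraries from 0.753 to 0.982 between the same pairs. Within groups over the 18 libraries, after removing each group's mean, they ran from 0.689 to 0.947. These within-group coefficients include the pair that is left out of the 16 libraries, and they were not computed without that pair. How far they rest on that pair was not tested. Differences within groups made up 31.2% to 45.3% of the variation of the 5 gene models with all 18 libraries and 7.05% to 23.8% in the 16. The pair was left out because of its direction, so the lower share in the 16 libraries is not a separate result. Among 11019 named gene models and over all 18 libraries, those closest to Sp-Alx1 were 2 models of Sp-Trim2-3, a tripartite motif protein, with r of 0.967 and 0.966, and Sp-Ovo, a zinc finger factor, with 0.948. After the other copy, L_var_14400 was closest to Sp-Mbtps1, the site-1 protease, with 0.969, and to Sp-Stmn1, a stathmin, with 0.966. L_var_14420 was closest, after the other copy, to Sp-Adam15L2, a metalloprotease, and Sp-Mbtps1, both with 0.951. Sp-Jun was closest to Sp-Asah2L3, a ceramidase-like gene, with 0.948, Sp-Fra2, a Fos-family gene, with 0.943, and Sp-Notchlg5 with 0.940. Sp-Tbr was closest to Sp-Ncam, a cell adhesion gene, with 0.939, Sp-Z474, a zinc finger gene, with 0.932 and Sp-Dach1 with 0.932. With these same genes the coefficients in the 16 libraries ran from 0.923 to 0.964.

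Other regulators of the lineage were split in direction, with 6 of 14 above 0. With all 18 libraries, 14 of 25 gene models of 13 further regulators were tested. For the mean ethanol effect 0 rose and 1 fell, where 0.53% of all gene models were called. The 14 had a median log2 fold change of -0.07, against 0.03 for all gene models. The one that fell was Sp-Dr_1, the dead ringer homolog, with -1.61 (adjusted p = 0.0373), and it fell at 15 hpf as well with -3.11 (adjusted p = 0.0477). At 15 hpf 0.0589% of all gene models were called. Whole embryos do not show in which cells Sp-Dr_1 fell. Sp-FoxB, a forkhead factor, stood at the other end with 1.34 (adjusted p = 0.0512, or 0.0104 with the block), and the middle of the list was held by a model of Sp-Erg, an ETS factor, with -0.03 and a model of Sp-Snail with -0.10. Sp-FoxN2/3, a forkhead factor, passed with the block only, at 0.42 (adjusted p = 0.0440), so that the block called 2 higher and 1 lower, where it called 21.2% of all gene models. In the 16 libraries with the block, 4 rose and 2 fell, with a median of 0.09, where 45.4% of all gene models were called. Chosen after its values were seen, Sp-Alx4, a relative and neighbour of Sp-Alx1 on chromosome 9, was among those that rose there, at 1.55 (adjusted p = 2.4e-05). With all 18 libraries it had 0.83 (adjusted p = 0.238), or 0.99 with the block (adjusted p = 0.0749). Sp-HesC, a repressor upstream of the lineage in S. purpuratus, was among those that fell in the 16 libraries, at -0.54 (adjusted p = 0.0219), and had -0.49 with all 18 (adjusted p = 0.217), or -0.50 with the block (adjusted p = 0.0536). Gene models of Pmar1 and Twist did not pass the filter.

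The partners of Jun and the kinases of the ERK route had a joint median near 0 but were split in direction. Of 8 gene models on this list, 0 were called with all 18 libraries, and their median mean effect was 0.02. For the mean effect 0.53% of all gene models were called. The models of Sp-Fos, Sp-Fra2 and Sp-Atf2 lay above 0, and those of Sp-Mek, Sp-Raf and Sp-Erk1/2 below 0. Sp-Fos, at an average of 2.94 CPM, was highest with 0.81 (adjusted p = 0.324), a model of Sp-Atf2 (L_var_06676) and a model of Sp-Mek (L_var_10840) were in the middle with 0.09 and -0.05, and Sp-Erk1/2 was lowest with -0.37 (adjusted p = 0.303). The block called 1, the other Sp-Atf2 model (L_var_06633), at 0.46 (adjusted p = 0.0479), against 21.2% of all gene models. The 16 libraries with the block called 3 higher and 1 lower of the 8, against 45.4% of all gene models. Named after their values were seen, the 3 were Sp-Fos at 1.29, Sp-Fra2 at 0.40 and L_var_06633 of Sp-Atf2 at 0.49. The lower one was Sp-Erk1/2 at -0.56.

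Genes of signals between the skeletogenic cells and their surroundings had a positive median. Of 5 gene models 0 were called with all 18 libraries, with a median mean effect of 0.37. For the mean effect 0.53% of all gene models were called. Sp-Vegf3, the ectodermal ligand that guides the skeletogenic cells, was highest at 0.63 (adjusted p = 0.105), Sp-Fgf was in the middle at 0.37 (adjusted p = 0.213) and Sp-Delta lowest at -0.12 (adjusted p = 0.713). With the block Sp-Vegf3 rose at 18 hpf, by 0.99 (adjusted p = 0.0462), and over the mean of the times, by 0.62 (adjusted p = 0.0123). The block called 4.07% of all gene models at 18 hpf and 21.2% over the mean. In the 16 libraries with the block, 4 of 5 rose over the mean of the times and 0 fell, against 45.4% of all gene models called in either direction.

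Skeletal matrix and effector genes, which lie downstream of these factors, also had a median near 0. Of 25 gene models 23 were tested. For the mean effect with all 18 libraries 0 rose and 1 fell, with a median of 0.04, where 0.53% of all gene models were called. The one that fell was Sp-Cara7LA, annotated as a carbonic anhydrase, with -1.09 (adjusted p = 0.0408). Sp-Sm50, a spicule matrix gene, was the middle of the list with 0.04, and Sp-Msp130r1, a relative of the cell surface glycoprotein Msp130, was highest with 0.70 (adjusted p = 0.274). The block called the same number, against 21.2% of all gene models. The 16 libraries with the block called 1 higher and 3 lower of the 23, with a median of 0.10, where 45.4% of all gene models were called. Several models carry Sm30 or Msp130 names. Reads could be divided between them if they are close copies, which was not checked.

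**Figure D4:**
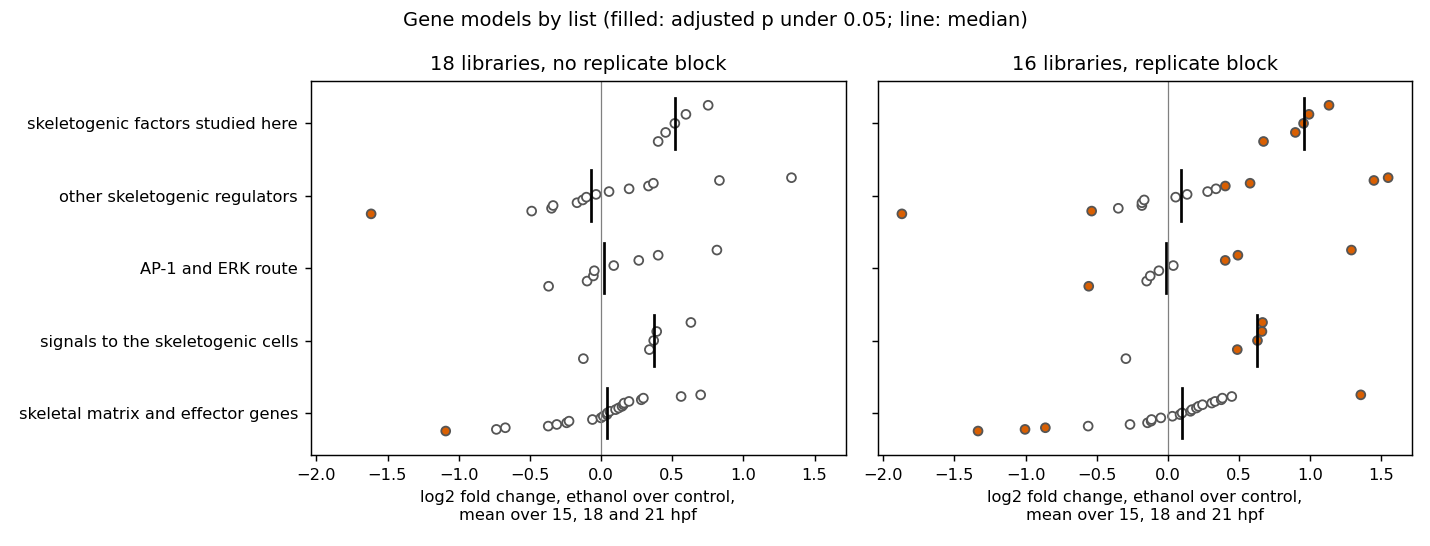
Log2 fold change of ethanol over control, mean over the times (horizontal axes), for the 5 gene models (top row) and the 4 lists, with all 18 libraries and no block (left) and with 16 libraries and the block (right). Each circle is a gene model, filled where the adjusted p was under 0.05, and lines mark medians, which for the effector list were 0.04 on the left and 0.10 on the right.

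Defining markers of each cell type were present, with 0 marker models at 0. The summed CPM of 9 skeletogenic marker models (Msp130, spicule matrix and related genes) lay between 2574 and 8541 in ethanol libraries and between 2809 and 6233 in control libraries, with ethanol higher in 4 of 9 pairs. The sum over 7 models of blastocoelar cell markers was 215 to 762 in ethanol and 237 to 622 CPM in control libraries, with ethanol higher in 8 of 9 pairs, the exception being replicate 3 at 21 hpf. Pigment cell markers (3 models) were higher in ethanol in 6 of 9 pairs, at 3772 to 10721 in ethanol and 2733 to 6684 CPM in control libraries. Endoderm markers (5 models) were higher in 4 of 9 pairs, at 1715 to 5038 in ethanol and 2307 to 4444 CPM in control libraries. Ectoderm markers (5 models) were higher in 2 of 9 pairs, at 331 to 595 in ethanol and 524 to 756 CPM in control libraries. Nervous system markers (2 models) were higher in 7 of 9 pairs, at 164 to 971 in ethanol and 177 to 652 CPM in control libraries. The part of these cell types in the levels of the 5 gene models was not tested.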

How the data were processed

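The authors deposited whole-number read counts per gene model, 1 column for each of the 18 samples, and an annotation with each model's position and its best S. purpuratus hit with percent identity, per the file headers. The submitters' processing notes name fastp, STAR and featureCounts. Their settings and the genome build are not given in the sources used here. Letters A, B and C of the deposited sample sheet were taken as biological replicates 1, 2 and 3.

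Counts were analysed in R 4.3.3 with edgeR 4.0.16. Of 27230 gene models, 18674 passed filterByExpr (minimum count 10, minimum total 15). Library sizes were scaled by TMM, and all 18 samples entered 1 quasi-likelihood model, with a mean for each of the 6 groups. Tests were two-sided and adjusted by the Benjamini-Hochberg method over all tested models, with a threshold of 0.05. The 95% intervals were derived from the F statistics and are approximate. The fit without the block was run on simulated counts, drawn with the spread of the fit with the block. Those counts held no replicate effect and no reversed pair, so they do not show how the fit handles either. The alternatives were a block for the replicate number, another normalization (RLE), library sizes alone, no filter, DESeq2 1.42.0, leaving out libraries, and summing the Sp-Ets1/2 models. Correlations used log2 CPM with a prior count of 2.

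Same-numbered ethanol and control samples deviated together at 15 and 18 hpf (correlations 0.600 to 0.742), as did samples at 21 and 15 hpf of 1 treatment (0.223 to 0.611). At 21 hpf not all did with all 18 libraries (-0.222 to 0.402), and without the pair of replicate 3 the value was 0.590. The labels do not say what a number shares.

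The 5 gene models, the lists and the tests were chosen with earlier results of these data known. List genes were matched by annotation name with at least 50% identity. Named list genes were those called with or without the block, and the first, middle and last of each list by mean effect. For pattern likeness, the 3 named models with the highest correlation and a mean log2 CPM of at least 2 were taken.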

Additional observations from a re-analysis of the deposited data

How the results depend on the processing

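At 15 and 18 hpf and over the mean of the times, the ethanol effect on each of the 5 gene models kept its positive direction under every alternative run, and DESeq2, RLE normalization, library sizes alone, no filter and the replicate block with all 18 libraries called 0 of the 5 there. At 21 hpf the direction was not stable. The log2 fold change of Sp-Alx1 was -0.0041 with the block, that of Sp-Jun 0.0014 with RLE, 0.00098 without a filter and 0.0013 with DESeq2, and that of Sp-Tbr -0.053 with library sizes alone. With libraries left out and no block it ranged from -0.72 to 1.22 for Sp-Alx1, -0.56 to 0.97 for L_var_14400, -0.73 to 0.95 for L_var_14420, -0.47 to 0.65 for Sp-Jun and -0.69 to 1.80 for Sp-Tbr. Without replicate 3 of both groups at 21 hpf it was 0.97 for L_var_14400, 0.94 for L_var_14420 and 0.64 for Sp-Jun, and with the block 0.94, 0.90 and 0.63. With the block and without replicate 3 in any group these were 0.95, 0.91 and 0.65. With the block and without replicate 1 the values were -0.64 for Sp-Alx1 and -0.13 for Sp-Tbr, and without replicate 2 they were -0.41 and -0.50. The change of Sp-Alx1 in control embryos ranged from -1.22 to 0.12 with libraries left out and was 0.10 with the block and without replicate 1. The cause was not tested.

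With single libraries or replicate numbers left out and no block, the number of the 5 called was 0 at each time, 0 to 5 over the mean of the times, 0 to 4 for the change with time in ethanol embryos and 0 to 3 in controls. Without replicate 3 of both groups at 21 hpf and with no block it was 5 over the mean, 1 for ethanol embryos and 3 for controls. With the block and without that pair it was 2, 5 and 2 at 15, 18 and 21 hpf, 5 over the mean and 5 for each change with time. With the block and without replicate 3 it was 1, 0 and 2 at the times, 5 over the mean and 4 for each change with time, and without replicate 1 and replicate 2 it was 1 and 0 for ethanol embryos. For ethanol embryos it was also 0 with library sizes alone and 1 without a filter.

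The number of all gene models called, with single libraries or replicate numbers left out and no block, was 0 to 37 at 15 hpf, 0 to 1 at 18 hpf, 0 to 4 at 21 hpf, 0 to 2281 over the mean, 55 to 917 for ethanol embryos and 0 to 947 for controls. Without replicate 3 of both groups at 21 hpf it was 79, 316, 12 and 3500 at the times and over the mean, 2 for the effect by time, 511 for ethanol embryos and 1042 for controls. With the block and without that pair it was 2943, 5134, 2037, 8671, 38, 2241 and 3517 in the same order. With the block and without replicate 3 it was 334, 1140, 1241, 5933, 3, 1345 and 2153. Without replicate 1 it was 0 in the ethanol comparisons, 756 for ethanol embryos and 708 for controls, and without replicate 2 it was 20, 1, 0, 17, 0, 1204 and 394. With all 18 libraries the block called 89, 760 and 3950 at 15 hpf, 18 hpf and over the mean, and 2245 and 2475 for ethanol and for control embryos, against 11, 0, 99, 700 and 725 without it. DESeq2 called 161, 280, 1453, 1329 and 1493 there and 12 for the effect by time.

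A group left with 2 libraries was assumed to vary like the others, since all share 1 estimate of the spread. Summing both Sp-Ets1/2 models, an alternative chosen after seeing the data like that of library sizes alone, gave a mean ethanol effect of 0.55 (adjusted p = 0.227, edgeR) and a change in ethanol embryos of -1.79 (adjusted p = 0.0464). Depth was not low for the 5 gene models, each of which had at least 167 counts in every library. The biological coefficient of variation was 0.398, or 0.247 with the block.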

Other observations

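In the 16 libraries without replicate 3 at 21 hpf, with the replicate block, single genes downstream and upstream of the 4 factors passed edgeR's quasi-likelihood test over the mean of the times, chosen here after their values were seen. In that fit 45.4% of all gene models were called. Among receptors, Sp-Vegfr10, the VEGF receptor that skeletogenic cells carry, rose by 0.66 on the log2 scale (adjusted p = 0.00262). With all 18 libraries it had 0.34 (adjusted p = 0.497), or 0.38 with the block (adjusted p = 0.212). Sp-Fgfr2_1, annotated as a partial FGF receptor-like kinase, rose by 0.63 in the 16 libraries (adjusted p = 0.000927), and had 0.39 with all 18 (adjusted p = 0.241), or 0.40 with the block (adjusted p = 0.120). Both were higher in ethanol embryos in 7 of 9 pairs. The share of all gene models with such pair counts, here or for the effector genes below, was not counted.

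Among effector genes, Sp-Msp130r1 rose by 1.36 in the 16 libraries (adjusted p = 7.36e-05), higher in ethanol in 7 of 9 pairs, and had 0.70 with all 18 (adjusted p = 0.274), or 0.80 with the block (adjusted p = 0.113). The spicule matrix gene Sp-Sm30A had -1.004 in the 16 libraries (adjusted p = 0.0153), higher in ethanol in 1 of 9 pairs, and -0.74 with all 18 (adjusted p = 0.228), or -0.83 with the block (adjusted p = 0.0619). One model of Sp-Sm30b (L_var_12629) had -0.86 in the 16 libraries (adjusted p = 0.00799), higher in ethanol in 2 of 9 pairs, and -0.67 with all 18, both without the block (adjusted p = 0.274) and with it (adjusted p = 0.0671). The other model of Sp-Sm30b (L_var_12700) was not called in the 16 libraries, with 0.24 (adjusted p = 0.236), and was higher in ethanol in 6 of 9 pairs. Sp-Cara7LA had -1.33 in the 16 libraries (adjusted p = 1.31e-05), higher in ethanol in 1 of 9 pairs, and passed with all 18 as well, at -1.09 (adjusted p = 0.0408).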
